A study of Homo sapiens with 4 samples.

Results

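The regions described here are 3773 places where both ChIP replicates had a peak summit in satellite DNA, out of 22702 places shared by the replicates. A region was taken when the deposited annotation of the replicate 1 list put its summit in the repeat class Satellite and when its nearest summit in the replicate 2 list, mutually nearest, lay within 200 bp. Satellites held 16.6% of all shared regions. The measured factor was TBX3, a DNA-binding regulator with a T-box domain, carrying a triple HA tag (TBX3-3xHA). Cells were 501mel, an established human melanoma line, and chromatin was precipitated with the HA antibody 12CA5 in 2 samples. The other 2 samples of the series are input chromatin from the same line and were not analysed here, so no value without antibody stands beside the peaks. Nothing in the labels says whether the replicates came from separate cultures, and the series holds a single ChIP condition, so no test between conditions was possible.

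Satellite DNA is sequence repeated head to tail in long arrays. Alpha satellite is the repeat of human centromeres, where the histone variant CENP-A marks the site at which the kinetochore forms. Beta satellite lies mainly beside centromeres, on the short arms of acrocentric chromosomes and near some chromosome ends, and satellites built of a 5-base unit lie in the heterochromatin next to centromeres. In hg38 the centromere arrays are model sequences, so positions and spacings inside them describe the model and not the order of repeats in any cell.

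The shared regions carried 9 satellite names, and 3771 of the 3773 had an identical name in the replicate 2 list. Alpha satellite, named ALR/Alpha in the deposited annotation, held 3659 regions. The other 114 were split over beta satellite (BSR/Beta, 69 regions), HSATI (11), (GAATG)n (10), CER (8), SAR (7), (CATTC)n (5), ACRO1 (2) and SATR1 (2). The units GAATG and CATTC are the same 5-base repeat read on opposite strands. Satellite summits of 3 further names in replicate 1, SATR2, LSAU and SST1, had no partner. A satellite region inside a RefSeq promoter window is shown because it is the only one of the 3773 whose replicate 1 summit fell in such a window, at FAM230B, a non-coding gene of chromosome 22. Its annotation was HSATI. The 300 bases are chr22:21167615-21167914, plus strand, RefSeq on GRCh38.p14, and the capitals mark the 16 bases from the replicate 1 summit at base 222 to the replicate 2 summit at base 237, counted from the 5′ end.
FAM230B window: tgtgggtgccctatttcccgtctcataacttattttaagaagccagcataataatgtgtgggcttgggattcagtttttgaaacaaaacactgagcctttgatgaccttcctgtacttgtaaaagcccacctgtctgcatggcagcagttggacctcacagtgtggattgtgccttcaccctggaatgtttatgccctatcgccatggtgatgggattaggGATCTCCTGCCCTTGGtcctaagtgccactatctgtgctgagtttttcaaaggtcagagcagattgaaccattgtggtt
The summits lay 29 and 14 bases before the RefSeq start of the gene at 21167865, whereas the deposited annotation took another start, 933 bp upstream of the replicate 1 summit. Adenine and thymine made up 53.7% of the window, and 23.9% of 35116 RefSeq promoter windows were as rich in them or richer. The T-box motif GGTGTGA was searched on both strands and was not among these letters, and 3.45% of all promoter windows held it. Sequences of the other satellite regions were not used here.

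Chromosomes differed widely in how many shared satellite regions they held. The named chromosomes held 3649 of the regions (96.7%), and 22 of these 24 chromosomes had at least 1. The other 124 regions lay on 44 unplaced or unlocalized sequences. The 5 chromosomes with the most, 1, 13, 6, 7 and 20, held 2552 regions or 67.6%. Chromosome 1 had 825 regions, from 989 satellite summits in replicate 1 and 1065 in replicate 2. Chromosome 13 had 655, from 793 and 853 summits. On chromosome 13 the satellite regions made up 53.2% of all shared regions of the chromosome, against 29.3% on chromosome 1, 31.9% on chromosome 20, 28.3% on chromosome 6 and 23.4% on chromosome 7.

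Chromosomes 14 and X had no shared satellite region. Chromosome 14 had 0 satellite summits in either list, although it held 517 other shared regions, and an unlocalized scaffold assigned to it held 35 beta satellite regions. Chromosome X had 2 satellite summits in replicate 1 and 5 in replicate 2, none of them paired, beside 301 shared regions outside satellites. Chromosome 19 had 3 satellite regions and chromosome 22 had 15. The order of the chromosomes looked close in the 2 lists in the plot of summits per chromosome. Counts of satellite summits ran from 0 on chromosome 14 in both lists to 989 in replicate 1 and 1065 in replicate 2 on chromosome 1. The length of satellite sequence on each chromosome was not used here, so the counts are not scaled to it. The treatment of reads that match several places is not known either, and the count of a chromosome may depend on it.

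**Figure D1:**
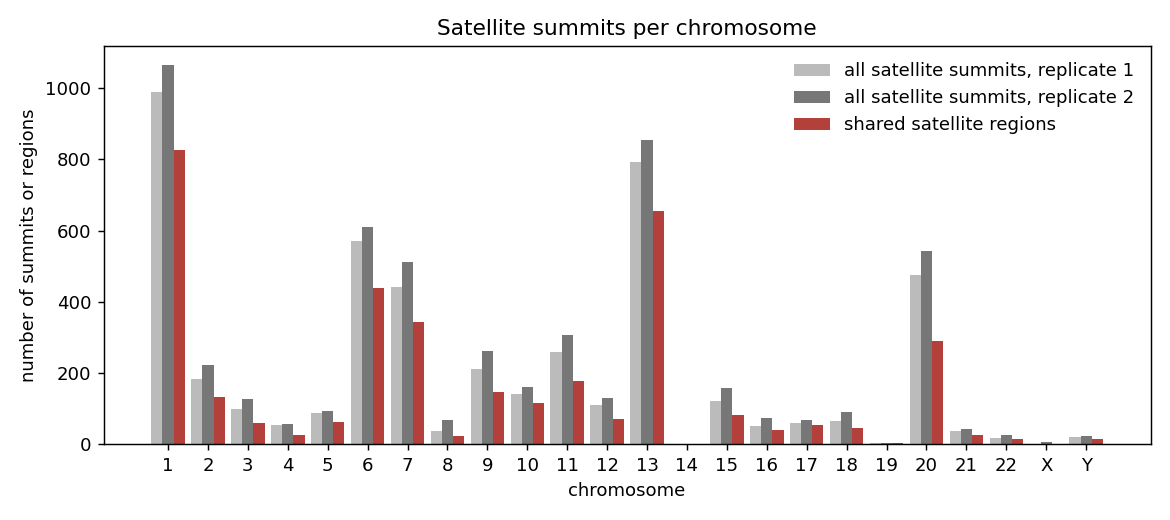
Number of satellite summits in each replicate list and of shared satellite regions (vertical axis) on each named chromosome (horizontal axis). Chromosomes 1 and 13 stand highest with 825 and 655 shared regions, and chromosomes 14 and X have 0.

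Most of the regions fell into 1 compact stretch per chromosome. Regions were joined into a stretch while the next lay within 500 kb, and the stretch with the most regions was taken on each of the 21 chromosomes with 15 or more. These 21 stretches held 3519 regions, 93.3% of the total. They held 3556 shared regions of any kind, so 99.0% of the summits shared within them were satellite summits, and 12 stretches contained no other shared region. Each stretch was bounded by its first and last satellite region, so a high share follows in part from how it was drawn. On chromosome 1 all 825 regions lay between 121743477 and 124940304, a stretch of 3.20 Mb with 258 regions per Mb. On chromosome 13 all 655 lay between 16029047 and 18213101, with 299.9 per Mb. Chromosome 6 was the densest, with 440 regions between 58449309 and 59826265 and 319.5 per Mb. Chromosomes 7 and 20 had 96.5 and 97.0 per Mb. The sparsest stretches were those of chromosome 4 with 9.60 per Mb and chromosome 17 with 9.75 per Mb.

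Regions were not spread evenly within a stretch. When the chromosome 1 stretch was divided into 5 equal segments of 639 kb, the first held 21 regions and the others 172 to 227. The last segment held the highest median scores, 46.9 in replicate 1 and 40.8 in replicate 2, against 21.2 and 19.0 in the first. On chromosome 13 the middle segment was the fullest with 174 regions and the first the emptiest with 65. On chromosome 7 the last segment held 13 regions against 57 to 99 in the others, and on chromosome 20 the last held 9 against 44 to 82. On chromosome 6 the range was 59 to 107. The 2 replicates were counted together here, since a region needs a summit in both.

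Neighbouring satellite regions lay a few kilobases apart. Across 3707 spacings between consecutive replicate 1 summits on a sequence, the median was 3467 bp, with quartiles of 1839 and 8458 bp, and 62.1% were within 5 kb. Replicate 2 summits of the same regions gave a median of 3478 bp. Shared regions outside satellites had a median spacing of 57774 bp, and 11.6% of their spacings were within 5 kb. The closest satellite neighbours were 516 bp apart on chromosome 13, at 16854463 and 16854979, and 7.18% of the spacings were under 1 kb. The widest gap, 138358486 bp, separated the last alpha satellite region of chromosome 4 at 51821119 from a beta satellite region at 190179605. Among the sequences with 15 or more regions, the median spacing ran from 2220.5 bp on chromosome 13 to 121471 bp on chromosome 22. Chromosome 1 had 2313 bp and chromosome 6 had 2345 bp.

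**Figure D2:**
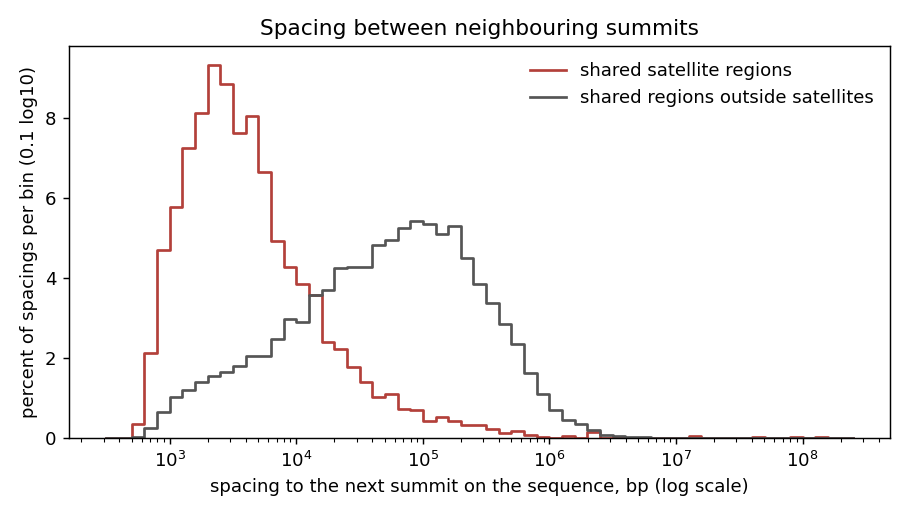
Percent of spacings (vertical axis, in bins of 0.1 log10 units) against the distance to the next summit on the same sequence (horizontal axis, bp, log scale), for shared satellite regions and for shared regions outside satellites. The satellite spacings peak at a few kilobases around their median of 3467 bp, and the others spread around a median of 57774 bp.

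Over all sequences, spacings lay near multiples of the alpha satellite repeat unit about as often as an even spread would give. Alpha satellite is built of monomers of about 170 bp, and summits at a fixed place in the monomer would be spaced by multiples of its length, which is marked to the base in the plot of periods. Of the 3707 spacings, 485 were within 10 bp of a multiple, 13.1% (95% Wilson interval 12.0% to 14.2%). Of all whole numbers 12.3% lie that near a multiple, which is inside the interval. A looser phase would be missed by this count. It used 1 exact length over a median spacing of 3467 bp, where a small error in that length adds up over many monomers. The 2 summits of a pair also differed by a median of 20 bp. Spacings of shared regions outside satellites gave 12.0% (11.6% to 12.5%). Of the 22 sequences with 15 or more regions, 20 had an interval that held 12.3%. The exceptions were chromosome 13, above it with 14.8% of 654 spacings (12.31% to 17.8%), and chromosome 9, below it with 6.80% of 147 (3.74% to 12.1%). Distances between all satellite regions up to 10 kb apart, 7905 in number, were also set against every period from 100 to 300 bp. The mean resultant length is 1 when all distances share a phase and 0 when phases are even, and it was 0.0226 at the monomer length. Its highest value was 0.0310, at 280 bp. With the replicate 2 summits of the same regions the highest value was 0.0251, at 146 bp, and the value at the monomer length was 0.0142. Shared regions outside satellites reached 0.0385, at 226 bp. With replicate 1 summits, 10 of the 201 periods had a value above that of the monomer length. They were 160 bp, 170 bp and the unbroken run from 277 to 284 bp around the highest value. The period of 170 bp, with 0.0241, is next to the marked monomer length, so the 10 are not separate peaks.

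**Figure D3:**
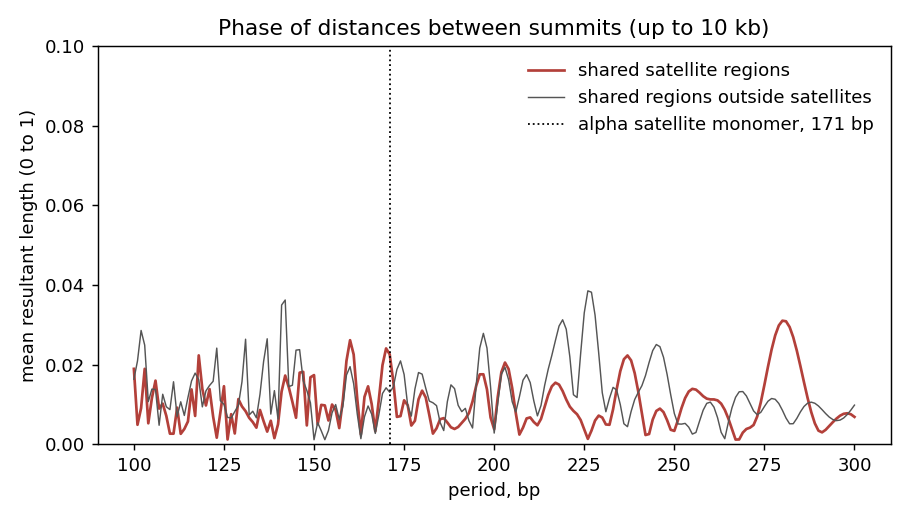
Mean resultant length of distances up to 10 kb between shared regions (vertical axis, 0 to 1, shown to 0.1) at each period in bp (horizontal axis). The curve for satellite regions, from replicate 1 summits, stays at or below 0.0310 and is 0.0226 at the length of the alpha satellite monomer, marked by a dotted line.

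Summits of a satellite pair lay close together. The median distance between the replicate 1 and replicate 2 summit was 20 bp, with quartiles of 8 and 47 bp, and the 90th percentile was 95 bp. Outside satellites the median was 29 bp with quartiles of 13 and 57 bp. Pairs within 50 bp numbered 2886 (76.5%), against 71.4% of all shared regions. Summits fell on the same base in 68 satellite pairs (1.80%, interval 1.42% to 2.28%), against 1.29% of all shared regions. The replicate 2 summit lay on the higher coordinate in 1908 pairs and on the lower in 1797, so there was no lean to a side. When regions were divided into 4 equal parts by replicate 1 score, the median distance was 10 bp in the part with the highest scores and 41 bp in that with the lowest. Outside satellites those medians were 18 and 49 bp. A displacement by 1 alpha satellite monomer was not prominent, since 55 pairs (1.46%) were 161 to 181 bp apart and 68 (1.80%) were 140 to 160 bp apart.

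The scores of satellite regions spanned a wide range in both lists. The score was deposited with each summit and its scale is not stated. Scores are printed and plotted as deposited, and the 2 lists were compared by rank. In replicate 1 the lowest score of a satellite region was 2.06, the median 20.2 and the highest 363. In replicate 2 these were 2.58, 20.2 and 520.1. The highest scores of shared regions outside satellites were 789 and 806. As a percentile among all peaks of the list the median was 64.9 in replicate 1 and 61.2 in replicate 2, where shared regions outside satellites had 63.6 and 72.2. The rank correlation of the 2 scores over the 3773 regions was 0.879 (Spearman's rho, a description over regions of the same pair of libraries, which are not replicates), and it was 0.863 over the 18929 shared regions outside satellites. Within a sequence of 15 or more satellite regions it ran from 0.576 on chromosome 2 to 0.965 on chromosome Y. The satellite share of shared regions varied with the score decile of the list. In replicate 1 it was 11.4% in the lowest decile, 18.2% in the ninth and 14.5% in the highest. In replicate 2 it was 16.5% in the lowest decile, 24.7% in the fourth and 6.39% in the highest.

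Satellite regions ranked lower in replicate 2 than in replicate 1 more often than shared regions did as a whole. Their percentile was lower in replicate 2 at 2416 of 3773 regions (64.0%, interval 62.5% to 65.6%), against 33.0% of all shared regions. The median change was -3.30 percentile points in satellites and 3.63 over all shared regions. When percentiles were taken among shared regions only, which gives both replicates the same number of ranks, the percentile was lower at 3003 satellite regions (79.6%, interval 78.3% to 80.8%) against 48.3% of all, and the median change was -9.56 against 0.24. In the top score decile of the whole list stood 465 satellite regions in replicate 1 (12.3%, 11.3% to 13.4%, against 14.1% of all shared regions) and 256 in replicate 2 (6.79%, 6.03% to 7.63%, against 17.6%). In the bottom score decile stood 66 satellite regions in replicate 1 (1.75%, against 2.55% of all shared regions) and 90 in replicate 2 (2.39%, against 2.41%). Shared regions in simple repeats also ranked lower in replicate 2 more often than all shared regions did. They did so at 106 of 217 regions among all peaks and at 138 among shared regions only. Their median changes were 0.14 and -3.92, so a shift of this direction was not limited to satellites. With 1 library on each side, the difference between the replicates was not tested.

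The median change of rank was below 0 on most sequences, though not clearly so on all of them. Among the 22 sequences with 15 or more regions, the median change was below 0 on 20 among all peaks, the exceptions being chromosome 16 (2.53) and chromosome 22 (2.01), and it was below 0 on all 22 among shared regions only, from -14.3 on chromosome 5 to -1.94 on chromosome 22. Among all peaks, the 95% interval of the median change held 0 on chromosomes 2, 4, 8, 9, 12, 15, 16 and 21. On chromosome 22 it lay above 0 (0.12 to 6.42), and on the remaining sequences below 0. These intervals treat regions of the same libraries as separate observations. The levels themselves differed more between sequences than between replicates. Chromosome 17 had the highest median percentile, 83.9 in replicate 1 and 80.8 in replicate 2, from 53 regions. Chromosome 1 had 79.6 and 75.3, chromosome 13 had 77.4 and 73.2, and chromosome 6 had 57.2 and 53.6. Chromosome 20 was lowest with 41.0 and 38.1, from 290 regions. The order of the 22 medians was nearly the same in the replicates (Spearman's rho 0.957, a description over sequences of the same libraries), and rho between the number of regions and the median percentile was -0.10 in replicate 1 and -0.16 in replicate 2. On chromosomes 12, 15 and 18 the median percentile was higher in replicate 2 although the median change within regions was negative.

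**Figure D4:**
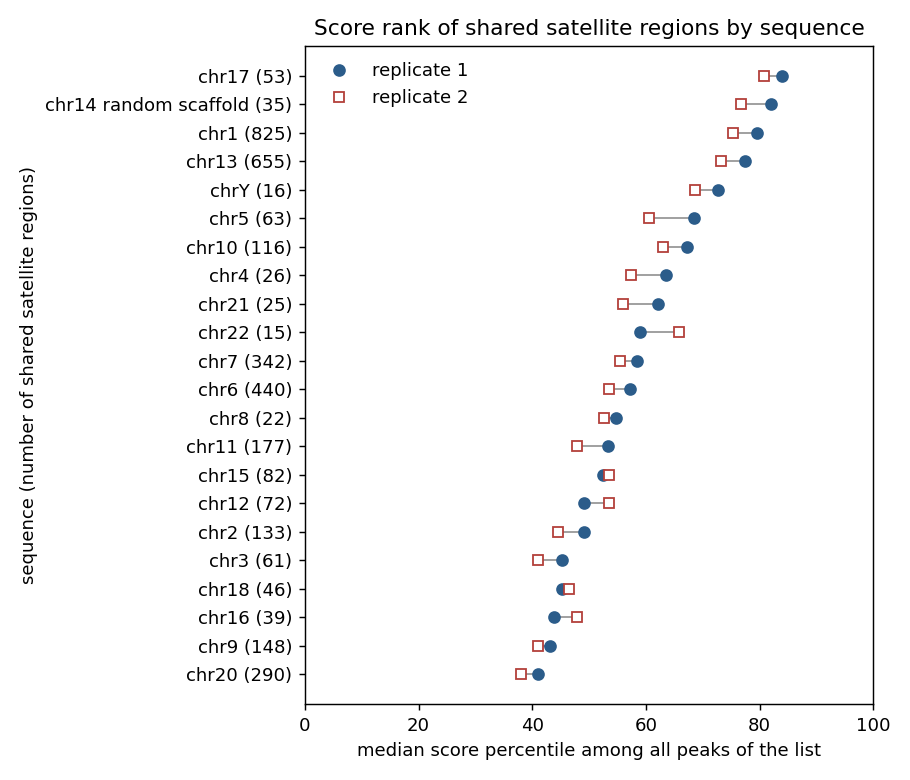
Median score percentile of shared satellite regions among all peaks of each list (horizontal axis, 0 to 100) for the 22 sequences with 15 or more regions (vertical axis, number of regions in brackets), replicate 1 as filled circles and replicate 2 as open squares. Replicate 1 runs from 41.0 on chromosome 20 to 83.9 on chromosome 17, and replicate 2 from 38.1 to 80.8 on the same chromosomes.

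Scores of neighbouring regions were loosely related. Over 2303 consecutive satellite regions within 5 kb of each other, Spearman's rho between a region's score and that of the next was 0.265 in replicate 1 and 0.286 in replicate 2. Outside satellites it was 0.082 and 0.137 over 2186 neighbours. These values describe regions that share library and chromosome, and the satellite value also holds the difference in level between chromosomes.

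The strongest satellite regions were ranked by the sum of their ranks in the 2 lists, and the first 10 lay on 5 named chromosomes and 2 unplaced sequences. The first was an alpha satellite region of chromosome 22, its replicate 1 summit at 12531170 and its replicate 2 summit at 12531162. Its scores were 363 and 520.1, at ranks 138 and 122, and it was 633764 bp from the nearest transcription start site (TSS). The next was on the same chromosome, at 12400085 and 12400058, with scores of 180.3 and 297. These 2 regions had the higher percentile in replicate 2, and the other 8 of the 10 had the lower percentile there. The lower percentile was also found at 33.0% of all shared regions and 64.0% of satellite regions. All 10 stood near the top of both lists, where a percentile has little room to rise. Alpha satellite of chromosome 17 held 2, at 23016408 and 23016409 with scores of 234 and 228, and at 26603915 and 26603909 with scores of 219 and 196. Alpha satellite of chromosome 13 also held 2, at 17072990 and 17073013 (scores 208 and 218) and at 17169295 and 17169300 (scores 195 and 197). On chromosome 1 the region at 122553882 and 122553889 scored 186 and 206. An alpha satellite region on an unplaced sequence, chrUn_KI270303v1, scored 263 and 186. The 10 were completed by beta satellite on chromosome 10, with summits at 133689532 and 133689533 and scores of 238 and 199, and by beta satellite on chrUn_GL000216v2 at 149648 and 149642, with scores of 242 and 193. In all 10 the summits of the pair were at most 27 bp apart.

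**Figure D5:**
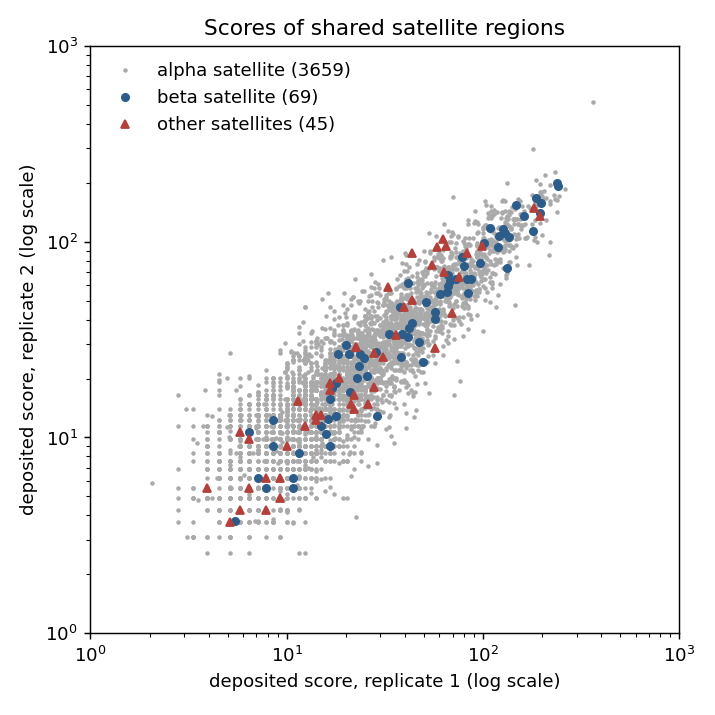
Deposited score of each shared satellite region in replicate 1 (horizontal axis, log scale) and replicate 2 (vertical axis, log scale), for alpha satellite (3659 regions), beta satellite (69) and the other satellites (45). The point farthest to the upper right is the alpha satellite region of chromosome 22 with scores of 363 and 520.1.

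Beta satellite regions stood higher in the lists than alpha satellite regions. Their median percentile was 82.3 in replicate 1 and 75.4 in replicate 2, over 69 regions, and that of alpha satellite was 64.2 and 60.5 over 3659. The difference between the names was not tested. Beta satellite scores ran from 5.48 through a median of 41.9 to 242 in replicate 1, and from 3.72 through 36.1 to 199 in replicate 2. Of the 69 regions, 61 ranked lower in replicate 2 among all peaks, as did 33.0% of all shared regions. Among shared regions only the count was 67, against 48.3% of all. They lay on 10 sequences, 35 of them on the scaffold chr14_GL000225v1_random between 194 and 144035, where their median scores were 41.6 and 38.2 and their median spacing 2640.5 bp. Another 13 lay on chromosome Y and 10 on chrUn_GL000216v2. Of 86 beta satellite summits in replicate 1, 69 had a partner, as did 3659 of 4835 alpha satellite summits.

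Several single beta satellite regions near chromosome ends had high scores, but others had low ones. On chromosome Y, beta satellite regions between 56838972 and 56849560 had SPRY3 as their nearest gene. Their scores ran from 7.82 to 84.3 in replicate 1 and from 5.55 to 61.7 in replicate 2. The region of chromosome 10 given above was 62737 bp from the TSS of FRG2B. On chromosome 4 a region at 190179605 and 190179608 scored 198 and 158, at percentiles 98.2 and 95.4. It fell in intron 2 of 5 of an annotated transcript, 5831 bp from the nearest TSS, which the annotation assigns to DUX4, a homeobox gene of the D4Z4 repeats at the end of chromosome 4. On chromosome 18, regions at 106837 and 110524 lay on either side of the start of ROCK1P1, a pseudogene of the kinase ROCK1. The first, 2228 bp upstream, scored 49.3 and 24.2, and the second, in intron 1 of 4 and 1459 bp downstream, scored 186 and 167.

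The remaining names were few and differed in level. HSATI had 11 regions on chromosomes 13, 21 and 22 and on a scaffold assigned to chromosome 22, and all 11 HSATI summits of replicate 1 had a partner. Their median percentiles were 82.9 and 80.4. The strongest by rank sum was on chromosome 13 at 18212093 and 18212095, in intron 1 of 7 and 16796 bp from the TSS of FAM230C, with scores of 183 and 149. SAR, with 7 regions, had median percentiles of 86.7 and 88.0, and its top region on chrUn_KI270467v1 scored 62.9 and 103. Of the 7 SAR regions 2 ranked lower in replicate 2 among all peaks and 3 among shared regions only, close to the 33.0% and 48.3% of all shared regions. The 10 regions in (GAATG)n had median percentiles of 66.9 and 59.0, and all 10 ranked lower in replicate 2, against 33.0% of all shared regions among all peaks and 48.3% among shared regions only. Their top region, on chromosome 16 with both summits at 34574035, scored 98.8 and 94.7. The 5 regions in (CATTC)n lay on chromosomes 4 and 21, with percentiles of 67.3 and 51.9 at the median, and the top one, at 49104231 and 49104246 on chromosome 4, scored 22.6 and 29.0.

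CER regions were the weakest of the names with 5 or more. Their 8 regions had median percentiles of 27.1 and 17.6, scores from 3.91 to 9.28 in replicate 1 and from 4.28 to 9.86 in replicate 2, and a median distance between summits of 143 bp. Of 27 CER summits in replicate 1, 8 had a partner. The top CER region, on chr17_GL000205v2_random at 11204 and 11083, scored 6.43 and 9.86. ACRO1 had 2 regions, of which that on chromosome 22 at 11814710 and 11814687 scored 31.1 and 25.7. The 2 SATR1 regions lay on chrUn_KI270742v1, and the one at 7973 and 8026 scored 10.0 and 9.09.

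Satellite regions were far from genes. The deposited annotation called 3656 of them intergenic (96.9%) and 6 intronic, and gave 111 no class. Over the 3662 regions with a distance, the median to the nearest TSS was 1279574 bp, against 37088 bp for shared regions outside satellites. More than 1 Mb from a TSS lay 2387 satellite regions (63.3%), against 10.7% of all shared regions. Within 10 kb of a TSS lay 8 (0.212%, interval 0.107% to 0.418%), against 16.7% of all shared regions. Besides the DUX4 and ROCK1P1 regions these were HSATI at FAM230B (933 bp, scores 16.6 and 18.9) and at LINC01663 on chromosome 22 (3431 bp, scores 65.0 and 94.7, summits 18891000 and 18891012), and CER near MIR1299 on chromosome 9 (3788 bp, scores 5.76 and 4.28, summits 40925304 and 40925156). The other 2 were alpha satellite, near TRIM48 on chromosome 11 (3764 bp, scores 19.3 and 30.0) and MIR4477A on chromosome 20 (5016 bp, scores 10.8 and 4.90), and were singled out after their values had been seen.

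Satellite summits made up 14.8% ± 0.953 of the peaks of a replicate (SD, n = 2), 5012 of 32479 in replicate 1 and 5703 of 40494 in replicate 2. A partner was found for 75.3% of them in replicate 1 (74.1% to 76.5%) and 66.1% in replicate 2 (64.9% to 67.4%), a mean of 70.7% ± 6.46 (SD, n = 2). Over all peaks, the paired share of each list was lower, at 69.9% (69.4% to 70.4%) and 56.1% (55.6% to 56.5%). Such intervals hold only the error of counting summits within 1 library, and the difference from satellites was not tested. Shared satellite regions also lay closer together, at a median spacing of 3467 bp against 57774 bp outside satellites. How many pairs arose by accident at either density was not tested. Satellite summits without a partner, 1239 and 1931, had lower scores, with medians of 7.82 and 7.62 against 20.2 in both lists for paired summits. Of the unpaired summits, 1236 and 1927 had a summit of the other list on the same sequence, and for 48.5% and 34.5% of these it was within 1 kb. These distances lay within 10 bp of a multiple of the monomer length in 11.5% and 13.1%. By sequence, the paired share of replicate 1 satellite summits was 83.4% on chromosome 1 (81.0% to 85.6%), 82.6% on chromosome 13 (79.8% to 85.1%) and 61.2% on chromosome 20 (56.7% to 65.5%).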

How the data were processed

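The series holds 2 anti-HA ChIP samples and 2 input samples of 501mel cells. A peak list per ChIP replicate was used, and replicates were not pooled. Per the file headers, each list is a file of summits annotated with annotatePeaks.pl of HOMER against hg38. Per the submitters' processing notes, cutadapt 2.8, Bowtie2 2.3.5, MACS2 2.1.2 and SAMtools 1.9 were used. Their settings, the control, the threshold and the treatment of reads that match several places are not given in the sources used here, and library depth is unknown. The score deposited by the authors has no stated scale. The deposited positions, distances to a TSS in bp and repeat names were used as they stand.

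Summits were paired when mutually nearest and within 200 bp, and the repeat class was read in the replicate 1 list. Percentiles and ranks are midranks within a list. Python 3.11.15 with pandas 2.3.3, numpy 2.4.6 and scipy 1.17.1 was used, and pairing and phase were tested on simulated data. The simulated summits for pairing lay farther apart than those of the densest stretches, so accidental pairing there was not checked. Those for phase kept an exact monomer grid with small shifts. Shares carry 95% Wilson intervals, which hold only the error of counting. Promoter windows, from 250 bases before to 50 after a RefSeq start, came from GRCh38.p14, whose named chromosomes have hg38 coordinates. A planned motif search at all summits was not run, because sequence was used only for promoter windows. No test between groups was run, because the ChIP samples are of 1 condition and the inputs were left out. Regions given in full are the 10 with the lowest rank sum, the top region of each name, the closest and widest neighbours, and regions outside alpha satellite within 10 kb of a TSS. Members and rules were chosen with earlier results of these data known.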

Additional observations from a re-analysis of the deposited data

How the results depend on the processing

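Of 55 alternatives, 36 kept the value and 19 moved it. A change of direction was looked for only in the median change of percentile, where 0 alternatives showed it. A value was kept when it stayed within the SD or the 95% interval of the value given, within 1.5 times for the number of regions, and within 1 bp for the period. Taking positions from the replicate 2 summits, 3 of the 55, was chosen after seeing the data. Why they moved was not tested, beyond the settings' own change in the number of summits. The number of shared satellite regions was 2261 with scores at or above the median of the list. Leaving out a replicate leaves all satellite summits of the other, 5012 to 5703. The share of satellite summits with a partner was 54.1% within 50 bp. The rank correlation was 0.832 above the median score. The median change of percentile was -7.80 above the median score and -9.56 among shared regions only, and the mean share in the top decile was 5.00% among shared regions only, against 9.55%. The median spacing was 4202 bp within 50 bp, 3242 bp within 500 bp, 4053 bp above the median score and 2739 to 2905 bp with a replicate left out. The share of spacings near a multiple of the monomer length was 6.91% within 5 bp and 25.0% within 20 bp, where 6.43% and 24.0% of all whole numbers lie that near, and it was 12.2% to 12.5% with a replicate left out. The period with the highest resultant length was 282 bp for pairs within 500 bp, 278 bp for distances up to 3 kb and 283 to 285 bp with a replicate left out, but 146 bp for the replicate 2 summits of the same regions. No paired analysis was possible because the input samples were not analysed here and no result comes from a test. Depth is unknown, so the number of weak satellite summits, and with it the paired share, may depend on it.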
